A study of Mus musculus with 24 samples.

Results

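The genes described here are 10 immediate early transcription factor genes, chosen by name from the gene table: the FOS genes Fos, Fosb, Fosl1 and Fosl2, the JUN genes Jun, Junb and Jund, the zinc finger genes Egr1 and Egr2, and Ier2. They are 10 of the 56748 genes in the deposited count table, and all 10 had enough reads to be tested in every fit. The members and the gene lists used below were chosen with earlier results of these data known. Counts of called genes set beside the share of all genes are therefore descriptive and no test of the sets. Immediate early genes are switched on within minutes of a stimulus, before any new protein is made, and their transcripts decay quickly afterwards. FOS and JUN proteins pair through leucine zippers to form the transcription factor AP-1, JUN proteins also pair with one another, and EGR proteins bind GC-rich promoter elements. In skeletal muscle these genes are known for responding to contraction, injury and growth factors, and in fibroblasts for responding to serum and matrix-regulating cytokines.

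Poly(A) RNA of cultured primary hindlimb cells was sequenced in bulk, and the donor mice were newborns below 5 days of age. The mice were C57BL/10, here called C57, or mdx mice of that background (C57BL/10-Dmdmdx), which carry a mutation in the dystrophin gene. Myoblasts were differentiated into myotubes, the fused multinucleate muscle cells, and received 1 µM aldosterone, a steroid hormone, or its vehicle (0.001% DMSO) for 48 h in medium with charcoal-stripped horse serum. The myotubes then spent 15 h in fresh medium without added hormone, and were lysed when that conditioned medium was collected. Each value in myotubes is therefore a level 15 h after the hormone was withdrawn. Fibroblasts received the conditioned medium of vehicle-treated or aldosterone-treated myotubes for 24 h. Fibroblasts always received medium from myotubes of their own genotype, so the effects of the cells' genotype and of the medium's genotype cannot be told apart. The 8 groups (2 cell types, 2 genotypes, 2 treatments) hold 3 libraries each, labelled as biological replicates 1 to 3. The labels do not say whether these were separate animals, so p-values measure the spread between these libraries, which may be that of cultures. The comparisons ask which immediate early genes differ after aldosterone in myotubes, after the medium of such myotubes in fibroblasts, between genotypes and between cell types.

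Library totals ran from 14133165 to 31144746 counts in the 12 myotube libraries and from 16964960 to 42698139 in the 12 fibroblast libraries. The summed level of 10 myotube markers was 27302 to 45546 CPM (counts scaled to library size, with TMM factors between libraries) in myotubes and 16.5 to 171 in fibroblasts. The sum of 9 fibroblast markers was 355 to 4886 CPM in myotubes and 15763 to 28129 in fibroblasts, so both labels matched their markers. Leukocyte and macrophage markers (12 genes) varied between myotube cultures: replicates 1, 2 and 3 had summed levels of 15.7, 546 and 318 CPM in C57 vehicle and 14.7, 431 and 249 CPM in C57 aldosterone. The same sums were 5.49, 47.1 and 18.8 CPM in mdx vehicle and 5.88, 232 and 14.3 CPM in mdx aldosterone. In bulk samples, fewer cells of a type and less RNA per cell cannot be told apart.

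The members are compact genes. Exons covered 100% of the deposited gene span of Jun, Jund and Ier2, 86.9% of Egr1, 84.9% of Fosb, 69.5% of Fos, 54.3% of Junb, 50.6% of Egr2, 43.9% of Fosl2 and 24.2% of Fosl1. The median over the 14278 protein-coding genes with enough reads was 18.3%, below every member. In the mouse build mm39, as deposited, Fos lies at chr12:85520664-85524047, Fosb at chr7:19036621-19043976, Fosl1 at chr19:5497575-5505974 and Fosl2 at chr5:32293145-32315186. Jun lies at chr4:94937271-94940459, Junb at chr8:85701113-85705347, Jund at chr8:71151599-71153265 and Ier2 at chr8:85387960-85389483. Egr2 lies at chr10:67371305-67378018. The libraries did not mark strand, so reads of a member and of an overlapping gene on the other strand cannot be told apart. Such a gene overlaps Jun (Junos), Junb (Prdx2), Fosl1 (Ccdc85b) and Jund (Gm11175). The highest count in a library was 868 for Junos, 9192 for Prdx2, 4899 for Ccdc85b and 0 for Gm11175.

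The stretches upstream of 3 members are shown because these genes rose after aldosterone in myotubes in at least 1 of the fits given further on and have a promoter entry in RefSeq. They are the 150 bases before the annotated start, read 5′ to 3′ on the gene's strand from RefSeq's GRCm38.p6 table, and capitals mark the motifs found.
Fos, chr12:85473740-85473889, plus strand: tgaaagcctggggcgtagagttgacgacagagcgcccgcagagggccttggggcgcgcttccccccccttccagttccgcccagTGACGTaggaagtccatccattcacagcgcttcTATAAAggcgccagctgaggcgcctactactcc
Junb, chr8:84978749-84978898, minus strand: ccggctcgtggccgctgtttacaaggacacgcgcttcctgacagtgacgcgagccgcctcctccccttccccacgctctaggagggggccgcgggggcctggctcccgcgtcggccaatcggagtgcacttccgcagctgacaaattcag
Egr2, chr10:67537719-67537868, plus strand, 1 of the 5 starts listed for it: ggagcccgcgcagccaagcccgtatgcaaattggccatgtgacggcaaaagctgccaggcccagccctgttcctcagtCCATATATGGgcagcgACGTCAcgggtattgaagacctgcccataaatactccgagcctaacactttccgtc
The search covered both strands for TGACGT (the core of the CREB site), TGANTCA (the AP-1 site), TATAAA (the TATA box) and the CArG box (the site of serum response factor, searched in its consensus form). Fos held TGACGT starting 66 bases before its start and TATAAA starting 33 bases before it. Egr2 held a CArG box starting 72 bases before its start and the reverse complement of TGACGT starting 56 bases before it. The other Egr2 starts differed in their windows of 300 bases, from 250 before to 50 after a start. The window chr10:67535249-67535548 held none of these motifs, and chr10:67537316-67537615 held a CArG box but no TGACGT. The windows of the remaining starts held both. The stretch of Junb held none of these motifs, but its window of 300 bases held TATAAA from base +1, past the printed stretch. The palindromic hormone response element of steroid receptors, searched on both strands in its consensus form, was in 0 of the 11 windows of members and in 0.00913% of all windows. A form this rare would be absent from almost any 11 windows, so its absence says nothing about the members. Of 32851 RefSeq windows of 300 bases, 7.51% held TGACGT, 7.81% TGANTCA, 13.6% TATAAA and 1.63% a CArG box. A match describes these letters only, and entries for 7 of the 10 members were in the table, with none for Fosl1, Egr1 and Ier2.

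Per transcript length, on the FPKM scale (counts scaled by exon length and library size, as deposited), Junb and Egr1 were the highest members in C57 vehicle myotubes, at 49.0 ± 6.18 and 43.6 ± 1.52 FPKM (SD, n = 3). Their 3 libraries overlapped, so the order of these 2 does not hold beyond the spread. Below them came Jun at 34.9 ± 2.20, Jund at 27.6 ± 1.17, Ier2 at 21.5 ± 2.88, Fosl2 at 10.1 ± 0.222 and Fos at 5.36 ± 0.703 FPKM, none overlapping its neighbour. Fosl1 at 2.62 ± 0.398 and Egr2 at 2.05 ± 0.155 FPKM overlapped, and Fosb was lowest at 0.517 ± 0.0894 FPKM. In C57 fibroblasts under vehicle medium the order was led by Egr1 at 175 ± 86.9 FPKM, followed by Junb at 85.0 ± 28.9, Jun at 68.1 ± 5.04, Ier2 at 65.6 ± 33.3 and Fosl2 at 44.9 ± 5.22, each overlapping the next. Egr2 at 24.4 ± 11.7 and Jund at 21.5 ± 0.603 FPKM overlapped, as did Fosl1 at 15.8 ± 0.398 and Fos at 14.2 ± 13, with Fosb again lowest at 1.42 ± 0.501 FPKM. Fosb, a FOS gene whose product also pairs with JUN proteins, was the lowest member in all 8 groups.

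**Figure D1:**
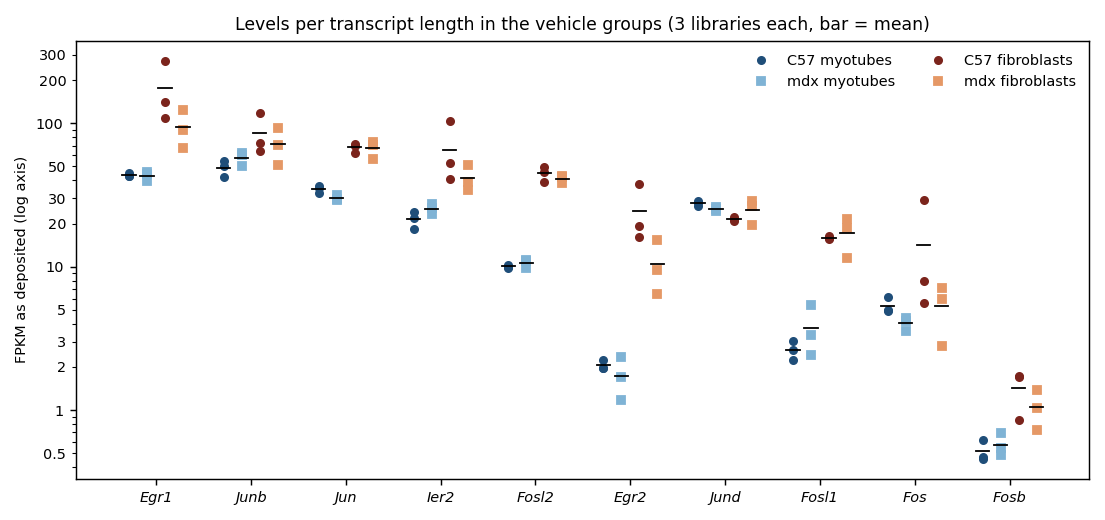
FPKM as deposited (y axis, log scale) of the 10 members (x axis, ordered by their mean in C57 fibroblasts) in the 4 vehicle groups; each point is 1 library and each bar a mean of 3. Egr2 and Fosl1 sit far higher in fibroblasts than in myotubes, while Jund lies in the same range in both cell types.

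JUN genes held a larger share of the AP-1 transcripts in myotubes than in fibroblasts. Of the summed FPKM of the 7 FOS and JUN genes, the 3 JUN genes made up 85.7% ± 0.330 (SD, n = 3) in C57 vehicle myotubes and 85.6% ± 0.938 in mdx vehicle myotubes. In fibroblasts under vehicle medium they made up 69.5% ± 2.59 in C57 and 71.4% ± 2.33 in mdx, with no library in the myotube range. After aldosterone the JUN share in C57 myotubes was 83.0% ± 0.275, at 82.8% to 83.3% against 85.4% to 86.0% under vehicle, which did not overlap. In mdx myotubes it was 85.9% ± 0.173 after aldosterone and overlapped the vehicle libraries. Fos alone made up 4.11% of this sum in C57 vehicle myotubes and 7.64% after aldosterone, against 3.08% and 4.47% in mdx.

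Aldosterone-treated myotubes had more Fos, Ier2, Egr1 and Junb RNA than vehicle-treated ones, in every same-numbered pair of libraries in both genotypes. Fos had the largest log2 difference of these 4, while Fosl2, Jun and Jund had log2 differences between -0.14 and 0.08 in each genotype. Fos encodes the classical FOS partner of JUN proteins in AP-1. In C57 myotubes its levels in replicates 1, 2 and 3 were 11.5, 14.3 and 11.6 CPM under vehicle and 28.1, 27.9 and 25.6 CPM after aldosterone. In mdx myotubes they were 10.0, 8.53 and 10.2 CPM under vehicle and 13.3, 16.8 and 18.5 CPM after aldosterone. All aldosterone libraries lay above all vehicle libraries of their genotype, and all C57 aldosterone libraries lay above all mdx ones. The share of all genes with such a rise or separation after aldosterone was not counted, so these orderings describe the libraries only.

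Ier2 encodes a small nuclear protein of the early serum response. Its C57 levels were 27.8, 36.3 and 33.2 CPM under vehicle and 59.7, 52.1 and 54.9 CPM after aldosterone. In mdx they were 39.9, 41.9 and 34.9 CPM under vehicle and 54.9, 73.5 and 58.8 CPM after aldosterone. Over both genotypes the 6 aldosterone libraries lay above the 6 vehicle libraries, with no overlap.

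Egr1, at chr18:34992876-34998037 in mm39, encodes a zinc finger factor of the mitogen response. Its C57 levels were 189, 189 and 202 CPM under vehicle and 303, 277 and 319 CPM after aldosterone. Its mdx levels were 180, 206 and 197 CPM under vehicle and 208, 337 and 281 CPM after aldosterone. The groups did not overlap, but replicate 1 of the mdx aldosterone group lay just above the highest vehicle library of that genotype.

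Junb encodes the JUN protein that often counteracts c-Jun. Its C57 levels were 95.9, 123 and 115 CPM under vehicle and 165, 146 and 163 CPM after aldosterone, with no overlap. Its mdx levels were 140, 144 and 114 CPM under vehicle and 177, 186 and 159 CPM after aldosterone, again with no overlap.

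**Figure D2:**
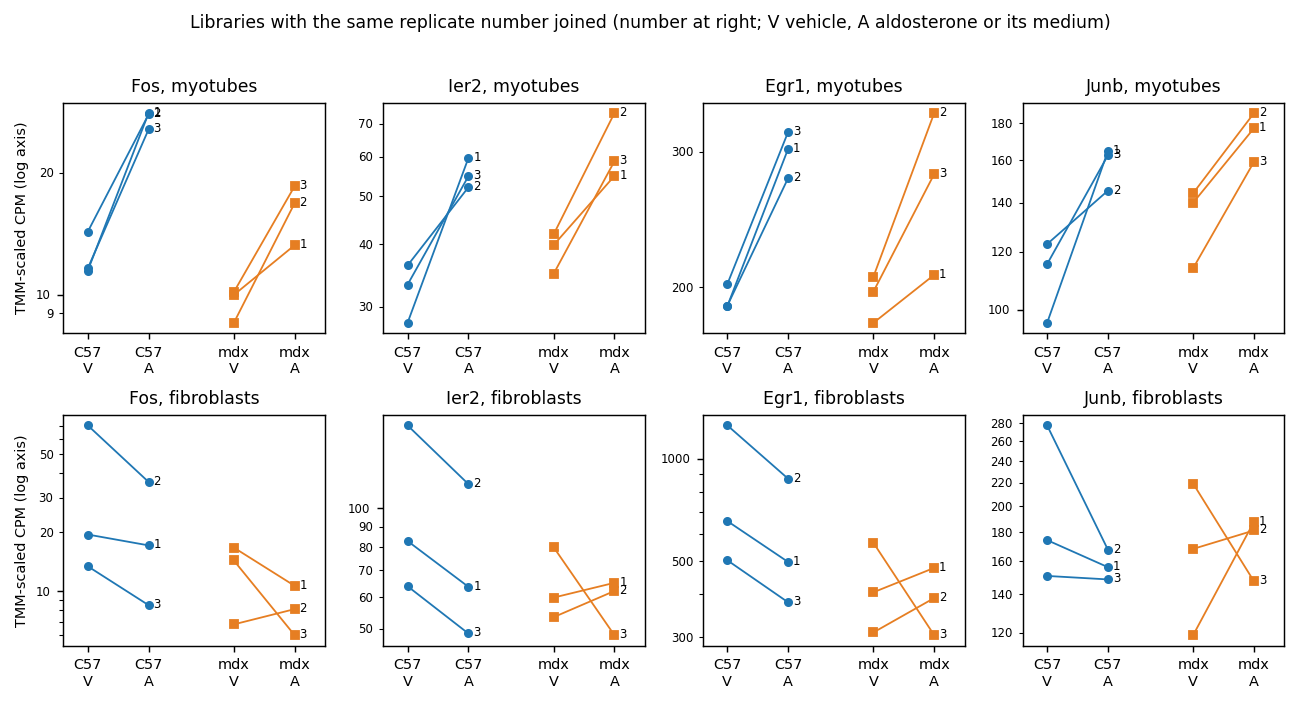
TMM-scaled CPM (y axis, log scale, own range in each panel) of Fos, Ier2, Egr1 and Junb; lines join vehicle (V) and aldosterone (A) libraries of the same replicate number, given at the right. In myotubes (top) all 6 lines slope upward for each gene; in fibroblasts (bottom) the 3 C57 lines slope downward for Fos, Ier2, Egr1 and Junb, the mdx lines cross, and replicate 2 is the highest of the C57 lines.

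Differences were tested by quasi-likelihood in edgeR, adjusted by Benjamini-Hochberg over the 15763 genes kept in myotubes, with 0.05 as the limit for a call. In myotubes, libraries of the same replicate number deviated together, so the fit with the replicate number as a block is given beside the one without. The labels do not state this pairing, so calls made only with the block depend on it. In C57 without the block, 1 of 10 members passed, against 0.0127% of all genes: Fos rose by 1.13 ± 0.14 (log2, SE; adjusted p = 0.0342). This call was lost whenever any of the 6 C57 libraries was left out, with adjusted p from 0.0739 to 0.285 and log2 changes from 1.06 to 1.24. With the block, 4 of 10 members passed in C57, against 4.98% of all genes; 2.52% of all genes passed as higher. Fos rose by 1.13 ± 0.10 (adjusted p = 2.11e-07), Ier2 by 0.78 ± 0.10 (0.000215), Egr1 by 0.64 ± 0.07 (2.49e-05) and Junb by 0.51 ± 0.08 (0.000418). The count of called members remained 4 in the blocked fit when any 1 C57 replicate number was left out.

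In mdx myotubes edgeR called 0 of 10 members without the block, where 0% of all genes passed. Without adjustment 4 members had p below 0.05; DESeq2 called 2 (Fos and Ier2) and limma-voom 0. With the block, 4 of 10 members passed, against 2.33% of all genes; 1.01% of all genes passed as higher. Fos rose by 0.73 ± 0.12 (adjusted p = 0.000627), Ier2 by 0.67 ± 0.10 (0.00169), Egr1 by 0.47 ± 0.07 (0.0011) and Junb by 0.39 ± 0.08 (0.00797). Junb lost its call when replicate 2 or replicate 3 of mdx was left out (adjusted p = 0.0863 and 0.119).

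Averaged over genotypes without the block, 2 of 10 members passed, against 0.216% of all genes: Fos rose by 0.94 ± 0.10 (adjusted p = 0.00842) and Ier2 by 0.73 ± 0.09 (0.00983). Egr1 at 0.57 ± 0.10 (adjusted p = 0.0548) and Junb at 0.45 ± 0.08 (0.059) missed the threshold. With the block 5 of 10 passed, against 8.96% of all genes, with 4.4% of all genes passing as higher: Fos, Ier2, Egr1 and Junb at adjusted p from 1.75e-08 to 2.25e-05, and Egr2 at 0.35 ± 0.11 (0.035). The call on Egr2, an EGR factor of myelination and immune cells, was lost when any 1 of 5 of the 6 replicate numbers was left out, replicate 1 of mdx being the exception. The median log2 change over the 10 members was 0.32 without the block, beside 0.01 over all genes tested.

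The other members differed little or varied among libraries. In C57 myotubes Fosb was at 3.83, 2.92 and 2.83 CPM under vehicle and at 5.45, 3.77 and 4.52 CPM after aldosterone. In mdx it was at 4.44, 3.44 and 2.98 CPM under vehicle and at 3.79, 3.92 and 3.12 CPM after aldosterone, so the groups overlapped in both genotypes. Within same-numbered pairs Fosb was higher after aldosterone in 3 of 3 in C57 and 2 of 3 in mdx, with a log2 change in the blocked fit of 0.51 ± 0.17 in C57 (adjusted p = 0.0906) and -0.02 ± 0.19 in mdx (0.987). Egr2 was at 6.58, 7.46 and 6.61 CPM under vehicle and at 8.54, 10.5 and 8.37 CPM after aldosterone in C57, where the groups did not overlap. In mdx Egr2 was at 4.07, 8.01 and 5.73 CPM under vehicle and at 3.66, 9.58 and 9.49 CPM after aldosterone, where they did. Fosl1, an AP-1 gene of proliferating and migrating cells, ranged from 4.48 to 11.3 CPM over the 12 myotube libraries and its mean log2 difference was 0.18 ± 0.20. Fosl2, the FOS gene tied to bone and skin, ranged from 84.9 to 112 CPM, and its mean log2 difference was 0.01 ± 0.07. Jun, the gene of c-Jun, ranged from 93.3 to 116 CPM, with a mean log2 difference of 0.00 ± 0.06. Jund, the JUN gene with steady expression in most cells, ranged from 36.0 to 48.0 CPM, with a mean log2 difference of -0.07 ± 0.07.

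**Figure D3:**
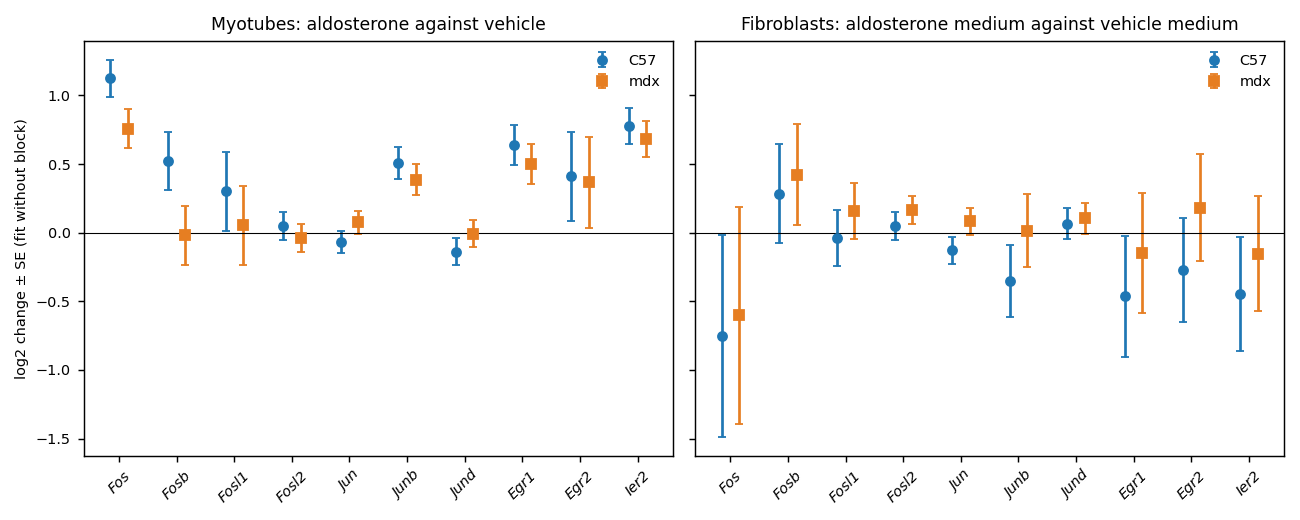
Log2 change with its SE (y axis) of each member (x axis) in C57 (circles) and mdx (squares), from the fit without a block: aldosterone against vehicle in myotubes (left) and the corresponding media in fibroblasts (right). In myotubes Fos, Ier2, Egr1 and Junb lie above 0 in both genotypes; in fibroblasts the intervals of Fos are the widest.

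Markers of several cell types passed in the blocked fits. With the block, 5 of 12 leukocyte and macrophage markers were higher and 0 lower after aldosterone in mdx, with a median log2 change of 1.74, and 0 were higher and 1 lower in C57, with a median of -0.29. Without the block 0 of 12 passed in either genotype, and none of the 12 was at 0 throughout a group. In mdx their summed level was higher after aldosterone in replicates 1 and 2 and lower in replicate 3. Replicate 2 was at 47.1 CPM under vehicle and 232 CPM after aldosterone. Replicate 1 was at 5.49 and 5.88 CPM, and replicate 3 at 18.8 and 14.3 CPM. The Fos ratio of aldosterone to vehicle in mdx replicates 1, 2 and 3 was 1.33, 1.97 and 1.83, and in C57 it was 2.45, 1.95 and 2.20. Without replicate 2 of mdx the blocked mdx values were 0.62 for Fos (adjusted p = 0.0328), 0.60 for Ier2 (0.0235), 0.35 for Egr1 (0.0309) and 0.41 for Junb (0.0863) on the log2 scale. In the blocked mean of genotypes 6 of 12 leukocyte and macrophage markers were higher and 0 lower, with a median log2 change of 0.75. For the blocked difference of the aldosterone effects between genotypes, 3 of these 12 passed as higher in mdx and 0 as lower. In the blocked mean 3 of 10 myotube markers and 2 of 9 fibroblast markers were lower and 0 of each higher. Of 6 tested myoblast markers 2 were higher and 1 lower, and of 6 tested endothelial markers 1 was higher. The endothelial sum (7 genes) was 83.0 to 178 CPM in C57 vehicle and 109 to 237 CPM in C57 aldosterone myotubes, and 34.8 to 46.2 and 34.5 to 71.2 CPM in the mdx groups. The fibroblast marker sum was 355 to 1142 and 454 to 860 CPM in C57 vehicle and aldosterone myotubes, and 1386 to 4507 and 1183 to 4886 CPM in mdx. The part of these cell types in the members' results was not tested.

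Differences between the genotypes in the size of the myotube response were not shown. In edgeR 0 of 10 members passed for the difference of the aldosterone effects without the block, where 0% of all genes passed, and 0 of 10 with it, where 0.0444% passed. Without adjustment, p was below 0.05 for 0 members without the block and for 2 with it; DESeq2 and limma-voom called 0. For Fos the mdx minus C57 difference of the log2 changes was -0.37 ± 0.19 (adjusted p = 1). Under vehicle, mdx and C57 myotubes differed in 0 of 10 members by edgeR, against 0.362% of all genes, with 2 members at an unadjusted p below 0.05 and 0 called by DESeq2 or limma-voom. After aldosterone 1 of 10 passed, against 0.311% of all genes: Fos was lower in mdx, with a log2 difference of -0.76 ± 0.14 (adjusted p = 0.0401). That call was lost when any 1 of the 6 aldosterone libraries was left out, with adjusted p from 0.0543 to 0.163, and with only these 2 groups in the fit (0.119).

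The wider set of genes around the members was read from lists, which share some genes. Maff is in both the early response list and the list of bZIP partners of AP-1. Egr4 is in both the early response list and the list of EGR relatives. The counts of these lists are therefore not separate. Of 40 other early response genes 39 were tested in myotubes, and averaged over genotypes with the block 17 were higher and 2 lower after aldosterone, where 4.4% of all genes passed as higher. Their median log2 change was 0.18, beside 0.01 over all genes tested. Within C57 13 were higher and 2 lower, where 2.52% of all genes passed as higher, and within mdx 8 were higher and 1 lower, where 1.01% did, also with the block. Per1, a clock gene and known steroid target, rose by 0.47 ± 0.06 (adjusted p = 6.2e-06), and it was the 1 gene of this list that passed without the block (0.48 ± 0.08, adjusted p = 0.0344). Klf6, a zinc finger factor gene, rose by 0.31 ± 0.04 (4.14e-05) and the growth regulator Myc by 0.32 ± 0.05 (0.000114), while the repressor gene Nfil3 fell by 0.35 ± 0.05 (8.09e-05). Of the 17 tested genes for other bZIP partners of AP-1, 6 were higher and 0 lower, beside the same 4.4% of all genes: Atf4, a stress response factor, rose by 0.28 ± 0.04 (4.14e-05), Maff by 0.31 ± 0.05 (0.000426), Atf5 by 0.20 ± 0.04 (0.00129) and Atf3 by 0.30 ± 0.07 (0.00721).

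Genes that act upstream of the members passed at about the share of all genes in the blocked mean, 8.96%. Of 28 genes for serum response factor, ternary complex factors, CREB proteins and MAP kinases, 1 was higher and 2 were lower with the block. Rps6ka5, a kinase of CREB and histone H3, rose by 0.24 ± 0.06 (adjusted p = 0.0139), while Mef2c fell by 0.20 ± 0.05 (0.00918) and the ternary complex factor gene Elk1 fell by 0.18 ± 0.05 (0.0167). Of 4 tested EGR relatives and corepressors, Egr3 fell by 0.19 ± 0.05 (0.00681), the direction opposite to Egr1. Of 25 textbook targets of AP-1 and EGR proteins, 6 were higher and 1 lower, again beside 4.4% of all genes as higher. Ccl2, a chemokine gene, rose by 0.58 ± 0.09 (0.000188), Odc1, the polyamine enzyme gene, by 0.30 ± 0.04 (1.12e-05) and Hbegf, a growth factor gene, by 0.21 ± 0.04 (0.00307). For Ptgs2, the cyclooxygenase gene of the same list, the aldosterone effect in mdx was below that in C57 by a log2 difference of -0.56 ± 0.10 (adjusted p = 0.0227, with the block). Without the block 0 genes of the bZIP, upstream, EGR and target lists passed for the mean effect in edgeR.

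In fibroblasts, no member was called after the medium of aldosterone-treated myotubes. In edgeR the test passed 0 of 10 members in C57 and in mdx, where 0% of all genes passed in each, 0 of 10 for the mean of genotypes, where 0.012% passed, and 0 of 10 for the difference between genotypes, where 0% passed. No member had an unadjusted p below 0.05 in these 4 comparisons, DESeq2 and limma-voom called 0, and with the block the count was 0 in each, where 0%, 0%, 0.018% and 0% of all genes passed. In C57 fibroblasts Fos was at 19.5, 70.1 and 13.4 CPM under vehicle medium and at 17.2, 36.1 and 8.51 CPM under aldosterone medium. In mdx fibroblasts it was at 16.7, 6.79 and 14.4 CPM and at 10.7, 8.12 and 5.98 CPM. The groups overlapped widely, and replicate 2 of C57 stood far above replicates 1 and 3 in both media.

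That C57 replicate also stood high for Egr1 and Ier2. Egr1 was at 657, 1254 and 504 CPM under vehicle medium and at 498, 874 and 379 CPM under aldosterone medium in C57. Ier2 was at 82.9, 161 and 63.9 CPM and at 63.7, 115 and 48.7 CPM. Replicate 2 exceeded the mean of replicates 1 and 3 by a ratio of 4.26 for Fos, 2.16 for Egr1 and 2.20 for Ier2 under vehicle medium, and by 2.81, 1.99 and 2.05 under aldosterone medium. It was the highest of 3 in both media for 4 of the 10 members, Fos, Egr1, Ier2 and Junb, for 6 of the 40 other early response genes (15%) and for 13.7% of all 13594 genes with at least 1 CPM on average. For Fosl2 the ratios were 1.03 and 0.803, and for Jund 0.954 and 0.874, so these members did not stand apart in that replicate. The same-numbered C57 pairs were lower under aldosterone medium in 3 of 3 for Fos, Egr1, Ier2 and Junb, and in mdx Fos was higher in 1 of 3 and the other 3 genes in 2 of 3.

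The log2 change under aldosterone medium in C57 fibroblasts was -0.75 ± 0.73 for Fos, -0.46 ± 0.44 for Egr1, -0.44 ± 0.42 for Ier2 and -0.35 ± 0.27 for Junb. Without the vehicle library of replicate 2 these values were 0.31, 0.02, 0.04 and -0.04. With the block and without both libraries of replicate 2 they were -0.40, -0.40, -0.39 and -0.09, so the sign for Fos, Egr1 and Ier2 depended on whether the aldosterone library of replicate 2 stayed in without its vehicle partner. In mdx fibroblasts the values were -0.60 ± 0.79 for Fos, -0.15 ± 0.44 for Egr1, -0.15 ± 0.42 for Ier2 and 0.02 ± 0.26 for Junb. The other 6 members had mean log2 changes over genotypes from -0.04 ± 0.27 (Egr2) to 0.35 ± 0.26 (Fosb). Egr2 under aldosterone medium was at 70.6, 70.4 and 70.5 CPM in C57, against 56.4, 131 and 67.3 CPM under vehicle medium. In the 5 lists of other genes, 0 genes passed in these comparisons in edgeR.

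Between genotypes in fibroblasts, edgeR called 0 of 10 members under vehicle medium, against 1.1% of all genes, and 0 of 10 under aldosterone medium, against 1.23%. In each medium 1 member had an unadjusted p below 0.05, and DESeq2 and limma-voom called 0. The largest differences under vehicle medium were those of Fos, at -1.47 ± 0.76 (mdx minus C57, log2), Egr2, at -1.22 ± 0.39, and Egr1, at -0.91 ± 0.44. Without replicate 2 of the C57 vehicle group they were -0.40, -0.76 and -0.43. Egr2 was at 22.0, 33.2 and 53.3 CPM in mdx under vehicle medium, all below the 3 C57 libraries. Jund was called without replicate 1 of the mdx vehicle group (0.35, adjusted p = 0.0396) and under no other setting tried. Of the other listed genes, Egr4, an EGR gene of the same early class, was lower in mdx under vehicle medium (log2 difference of -1.92 ± 0.39, adjusted p = 0.0261), as was Atf6, a factor of the unfolded protein response (-0.25 ± 0.06, 0.0459). Fits without single libraries were read for the members only, so the dependence of Egr4 and Atf6 on replicate 2 of C57 was not tested.

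**Figure D4:**
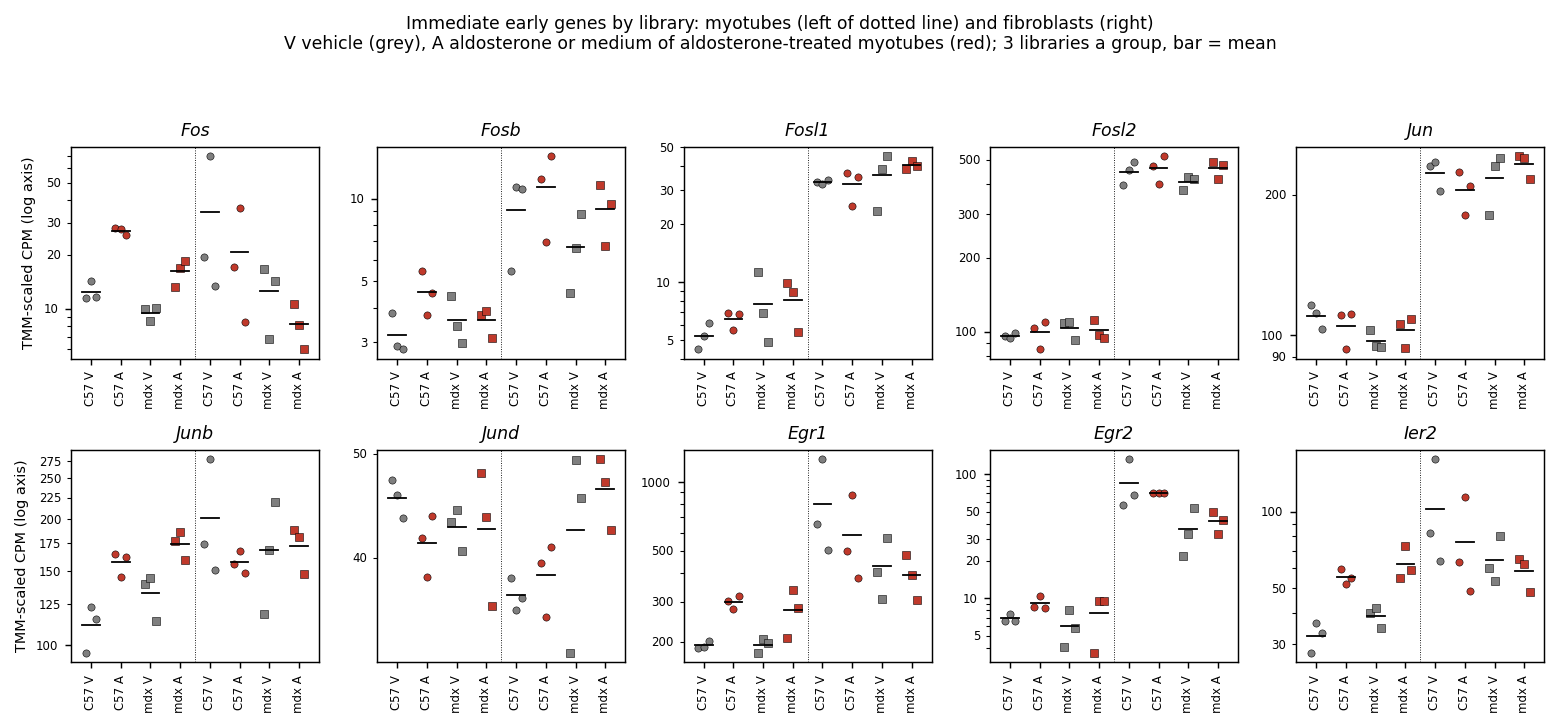
TMM-scaled CPM (y axis, log scale, own range in each panel) of the 10 members in all 24 libraries; groups on the x axis are C57 and mdx under vehicle (V) or aldosterone (A), myotubes left and fibroblasts right of the dotted line, bars are means of 3. Fosl1, Fosl2, Jun and Egr2 separate the cell types without overlap, and the C57 vehicle fibroblasts hold the highest single Fos, Egr1 and Ier2 values.

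Most members were lower in myotubes than in fibroblasts. Over the 12 libraries of each cell type, Egr2 ran from 3.66 to 10.5 CPM in myotubes, with a median of 7.73, and from 22.0 to 131 CPM in fibroblasts, with a median of 54.8. Fosl1 ran from 4.48 to 11.3 CPM with a median of 6.47 in myotubes, and from 23.5 to 45 CPM with a median of 35.9 in fibroblasts. Fosl2 ran from 84.9 to 112 CPM with a median of 98.1 in myotubes, and from 376 to 517 CPM with a median of 439.6 in fibroblasts. For these 3 and for Jun, at 93.3 to 116 against 181 to 242 CPM, the cell types did not overlap. These 4 of 10 members stand beside 51.3% of all 17864 genes without overlap, 25.2% of all genes being lower in myotubes. The other 6 members overlapped, and Jund had nearly the same range in both, 36.0 to 48.0 CPM in myotubes and 32.6 to 49.4 CPM in fibroblasts.

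In C57 under vehicle, all 10 members passed edgeR's test over 17864 genes, where 74.7% of all genes passed, 38% being lower and 36.7% higher in myotubes. Of the members, 9 were lower in myotubes: Egr2 by a log2 difference of -3.62 ± 0.39 (adjusted p = 1.33e-07), Fosl1 of -2.66 ± 0.27 (3.62e-08), Fosl2 of -2.21 ± 0.12 (4.12e-13), Egr1 of -2.06 ± 0.33 (1.83e-05) and Ier2 of -1.66 ± 0.31 (0.000112). The differences of Fosb, Fos, Jun and Junb were -1.5 ± 0.30, -1.45 ± 0.53, -1.02 ± 0.10 and -0.85 ± 0.20. Jund was higher in myotubes, by 0.30 ± 0.12 (adjusted p = 0.0234). Without replicate 2 of the C57 vehicle fibroblasts the difference of Fos was -0.40 (adjusted p = 0.414). Fos also lost its call without replicate 1 or 3 of the C57 vehicle myotubes (0.0617 and 0.0549). The same held with limma-voom (0.0784) and with only the compared groups in the fit (0.13). With the block, Fos lost its call without replicate 1 or 2 of C57 (0.0612 and 0.238). Jund lost its call without replicate 1 or 2 of those myotubes or replicate 2 or 3 of those fibroblasts, with adjusted p from 0.0511 to 0.0688. With the block, Jund lost its call without replicate 1, 2 or 3 of C57 (0.0851, 0.115 and 0.0631).

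In mdx 7 of 10 members passed, all lower in myotubes, where 70.5% of all genes passed and 35.1% were lower. The largest differences were again those of Egr2 (-2.66 ± 0.39), Fosl1 (-2.17 ± 0.26) and Fosl2 (-1.97 ± 0.11), followed by Jun (-1.16 ± 0.10), Egr1 (-1.14 ± 0.32), Fosb (-0.86 ± 0.31) and Ier2 (-0.73 ± 0.31, adjusted p = 0.0437). Fos (-0.37 ± 0.55, adjusted p = 0.559), Junb (-0.35 ± 0.20, 0.13) and Jund (0.00 ± 0.12, 0.982) did not pass. Ier2 lost its call without 5 of the 6 libraries, the exception being replicate 2 of the fibroblasts, and Fosb without replicate 3 of either cell type. Fosb also lost its call with limma-voom (adjusted p = 0.0761), and Ier2 without the low-count filter (0.0847). With the block the counts were again 10 and 7, where 74.9% and 71% of all genes passed. That block joins myotube and fibroblast libraries of the same genotype and number, and pairing across cell types was not tested. Of the 40 other early response genes, 28 were lower and 6 higher in C57 myotubes, and 24 were lower and 6 higher in mdx. Sik1, a salt-inducible kinase gene, was among the higher ones, with a log2 difference of 3.00 ± 0.16 in C57 and 2.87 ± 0.16 in mdx. Of 25 textbook targets, 16 were lower and 3 higher in C57, and 14 lower and 5 higher in mdx; Vegfa was lower with log2 differences of -1.83 ± 0.16 and -1.39 ± 0.16. Of 17 bZIP partner genes 8 were higher and 5 lower in myotubes in each genotype. Of 28 upstream genes 11 were higher and 11 lower in C57, and 10 and 11 in mdx. These list counts stand beside 36.7% of all genes higher and 38% lower in C57. In mdx 35.1% of all genes were lower, and 70.5% passed in either direction.

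The response of the cell types was compared directly as the aldosterone effect in myotubes minus the medium effect in fibroblasts, averaged over genotypes; the 2 treatments are not the same, since fibroblasts received medium and not hormone. Without the block edgeR called 0 of 10 members, against 0.0728% of all genes, with 4 members at an unadjusted p below 0.05 and 0 called by DESeq2 or limma-voom. The differences were 1.61 ± 0.54 for Fos, 1.02 ± 0.31 for Ier2, 0.86 ± 0.32 for Egr1 and 0.61 ± 0.20 for Junb (log2, adjusted p from 0.337 to 0.494). With the block 2 of 10 passed, against 2.19% of all genes: Fos at 1.49 ± 0.26 (adjusted p = 0.0242) and Ier2 at 1.00 ± 0.18 (0.0294). In C57 fibroblasts the replicate numbers were not shown to pair the libraries, so the blocked value is given as an alternative only. The count with the block was 0 without any 1 of the C57 replicate numbers or replicate 1 of mdx. It was 2 without replicate 2 of mdx (Fos and Ier2) and 2 without replicate 3 of mdx (Egr1 and Ier2).

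By pattern over the 24 libraries, the gene nearest to Egr1 among 10811 protein-coding genes was Zfp36, an early gene for an RNA-decay protein, with a root mean square difference of 0.14 between centred log2(CPM + 1) values, where Egr1 itself deviated from its mean by 0.72. Ier2 (0.30) and Ier3 (0.36) followed. Nearest to Fos were Ier2 (0.57), P3h2 (0.58) and Dbp (0.61), against an own deviation of 0.76, so by this measure no gene lay close to Fos. The measure also counts differences in the size of a change, so it does not show whether a gene shared the direction of Fos. Nearest to Fosl1 were Plaur (0.16), Hmox1 (0.19) and Aldh9a1 (0.21), against 1.16. Nearest to Fosb were Vgll3 (0.24), Kank1 (0.26) and Mnt (0.27), against 0.62. Among the members themselves the smallest differences were those of Fosl1 with Fosl2 (0.27), Egr1 with Ier2 (0.30) and Junb with Ier2 (0.32). Such a difference is also small between genes that vary little. Own deviations of Junb, Ier2 and Fosl2 are not given, so the value for Junb with Ier2 does not show a shared pattern. These values describe 24 libraries that share cell type and culture, and carry no test.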

How the data were processed

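The authors deposited a table of raw counts per gene and a table of FPKM values per gene, and per the submitters' processing notes the counts came from featureCounts 1.5.0-p3 on the build mm39. The FPKM values are, as deposited, each gene's counts divided by its exon length and by 1 constant per library. Per the labels' protocols, RNA was poly(A)-selected and libraries did not keep strand. The sources used here name neither an aligner nor an annotation.

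The members and gene lists were chosen with earlier results of these data known. Groups came from the labels. The counts were fitted in R 4.3.3 with edgeR 4.0.16: filterByExpr, TMM scaling, robust quasi-likelihood test, Benjamini-Hochberg adjustment over all genes kept (15763 in myotubes, 16671 in fibroblasts, 17864 over both), and a call at an adjusted p below 0.05. The 12 libraries of a cell type shared 1 estimate of the spread, and comparisons of cell types used all 24. The SE is the size of the log2 change divided by the square root of F, an approximation. All 10 members are named, with genes taken from the up to 4 called per list and comparison by smallest adjusted p (the text gives a part of these, and 1 is not reported here), and for 4 members the 3 most similar genes of at least 5 CPM on average. Alternatives were other scalings, filters, limma-voom (limma 3.58.1), DESeq2 1.42.0, fits on the compared groups only, leaving out each library, and the replicate number as a block. The fits were tested on simulated data.

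Deviations from the group mean correlated between same-numbered vehicle and aldosterone libraries at 0.452 to 0.737 in C57 and 0.629 to 0.764 in mdx myotubes over 13702 genes, so the numbers pair the myotube libraries. The pairing comes from these correlations and the shared numbers in the labels. Between replicates, chi-square per degree of freedom was 4.2 or more, so no library was a copy of another.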

Additional observations from a re-analysis of the deposited data

Results flagged for a closer look

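For 2 members the aldosterone effect in myotubes and the medium effect in fibroblasts differed by a test of the difference itself, in edgeR's fit with the replicate number as a block. For Fos the difference of the log2 changes, averaged over genotypes, was 1.49 ± 0.26 (adjusted p = 0.0242), and for Ier2 it was 0.9951 ± 0.18 (adjusted p = 0.0294). Without the block neither passed (adjusted p = 0.448 and 0.337). With the block, neither passed when any 1 C57 replicate number or replicate 1 of mdx was left out, with adjusted p of up to 0.132 for Fos and 0.139 for Ier2. Without replicate 3 of mdx Ier2 passed (0.00142) and Fos did not. In myotubes both genes were higher with aldosterone in 6 of 6 same-numbered pairs. In fibroblasts Fos was higher in 0 of 3 C57 pairs and 1 of 3 mdx pairs, and Ier2 in 0 of 3 and 2 of 3. In C57 fibroblasts the numbers were not shown to pair the libraries.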

How the results depend on the processing

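Of 2904 values compared with the reported ones, 328 were called in both settings and none of these changed sign. Another 41 were called only as reported and 70 only under the alternative, 50 of them in fits with the replicate block. Of 2465 called in neither, 164 had another sign, the largest being Fos in C57 fibroblasts (-0.75, and 0.31 without replicate 2 of the vehicle group). For aldosterone in C57 myotubes, where 1 member was called, the count was 4 with the replicate block, 4 without the low-count filter, 4 with DESeq2, 3 with only the compared groups, 0 without any 1 library, and 4 with the block and any 1 replicate number left out. In mdx myotubes, where 0 were called, it was 4 with the block, 2 without the filter, 2 with DESeq2, and 3 to 4 with the block and 1 number left out. For the mean of genotypes, where 2 were called, it was 5 with the block, 4 without the filter, 4 with DESeq2, and 4 to 5 with the block and 1 number left out. For mdx against C57 after aldosterone, 1 member was called, and 0 with only the compared groups or without any 1 library. In fibroblasts the count went from 0 to 1 for the mean medium effect with the block and without replicate 2 of mdx (Fos, -0.78, adjusted p = 0.0484), and ranged from 0 to 1 between genotypes under vehicle medium without 1 library. Between cell types in mdx it was 7, and 4 with the block and without replicate 3. For the difference of effects between cell types it was 0, 2 with the block, and 0 to 2 with the block and 1 number left out. The cause of these changes was not tested.

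Deviations of same-numbered fibroblast libraries correlated at 0.0737 to 0.207 in C57, where 2 of 3 vehicle libraries correlated best with their own number, and at 0.222 to 0.402 in mdx, where 3 of 3 did. As a block there, the numbers left the count of called members at 0 in each fibroblast comparison of media. Fosb, Fosl1 and Egr2 had the fewest reads of the members in myotubes, at 2.83 to 11.3 CPM, which limits what could be detected for them.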
